A study of Homo sapiens with 24 samples.

Results

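The 6 kallikrein genes KLK5, KLK6, KLK7, KLK8, KLK10 and KLK11 were followed through 24 RNA-seq libraries of HCT116 cells, an epithelial cell line from a human colorectal cancer. They were chosen by name, because KLK5 had been seen to rise in irradiated p53 wild-type cells of the same libraries, and they are 6 of 60675 gene ids in the files and 6 of the 20668 genes that had enough reads to be tested. All 6 passed that filter, KLK11 with no more than 36 reads in a library. The groups were p53 wild-type (WT), p53 Mutant and p53 Null HCT116 cells, each given 20 uM APR-246 before 6 Gy of irradiation (combination), irradiation alone, APR-246 alone or solvent, with 2 libraries in each of the 12 groups and collection 72 hours after irradiation. The medium was McCoy 5A with 10% FBS throughout. APR-246 is a small molecule developed to restore the fold of mutant p53. Each p53 status is a single line, so that other differences between the lines cannot be told apart from their status, and the labels do not say whether the 2 libraries of a group come from separate cultures, so that p-values measure only the spread between these libraries.

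Kallikreins are secreted serine proteases that are made as inactive precursors and cut into their active form outside the cell, often by one another. In the skin, KLK5 activates the precursors of KLK7 and KLK14, and KLK5 and KLK7 then cut the corneodesmosomes that hold cornified cells together, under the control of the inhibitor LEKTI, the product of SPINK5. The genes lie side by side in a single cluster on chromosome 19, and several of them are expressed in carcinomas of the colon, ovary and breast.

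Libraries held 53184139 to 58058729 reads assigned to genes, so that 3 reads, the floor used here, stand for 0.0517 to 0.0564 CPM (reads of a gene scaled to the library's total). CDKN1A, a cell cycle inhibitor, had 508 to 2253 CPM in WT cells, 88.7 to 240 CPM in Mutant cells and 140.3 to 357 CPM in Null cells. Of 7 markers of colon epithelium, EPCAM, KRT8, KRT18, KRT19, CDH1 and CDX2 were above 10 CPM in every library, and VIL1, the microvillus protein villin, was at 0.0346 to 1.52 CPM. The summed level of 5 blood cell markers was 0.0344 to 0.63 CPM, and that of 7 markers of fibroblasts and endothelium 13.6 to 72.7 CPM, most of it COL1A1, with DCN at 0 in 19 libraries and COL1A2 in 16.

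All 6 genes lie on the minus strand of chromosome 19 (GRCh38, GENCODE 29), and their span is 84.7 kb. KLK5 (ENSG00000167754) runs from 50943303 to 50953093, KLK6 (ENSG00000167755) from 50958631 to 50969673, KLK7 (ENSG00000169035) from 50976482 to 50984099, KLK8 (ENSG00000129455) from 50996007 to 51002711, KLK10 (ENSG00000129451) from 51012739 to 51020175 and KLK11 (ENSG00000167757) from 51022216 to 51028039. KLK9 lies between KLK8 and KLK10 and had 0 reads in all 24 libraries. Of the exon bases of KLK8, 40.1% are also exon of AC011473.4, a protein-coding gene of the same strand that was at 0 CPM in every library, and 12.2% of those of KLK5 and 20.3% of those of KLK6 face exons of the antisense gene AC011483.2, which reached at most 0.0707 CPM. The strand setting of the count is not given in the sources used here, so that reads of an antisense partner cannot be told apart, and whether reads in shared exons were dropped was not tested. AC011473.4 and KLK9 both start 56.5 kb from the start site of KLK5, on the same strand. Whether they share exons was not examined, so that the 0 reads of KLK9 need not mean that it has no transcripts.

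The promoters of KLK5, KLK6 and KLK7 are shown because these genes had the closest profiles over the libraries, those that led to the choice included. Each is the stretch of 250 bases before the RefSeq start site (GRCh38.p14), read on the minus strand, at chr19:50953039-50953288 for KLK5, chr19:50969592-50969841 for KLK6 and chr19:50983918-50984167 for KLK7. Capitals mark matches, on either strand, to the motifs searched.
KLK5: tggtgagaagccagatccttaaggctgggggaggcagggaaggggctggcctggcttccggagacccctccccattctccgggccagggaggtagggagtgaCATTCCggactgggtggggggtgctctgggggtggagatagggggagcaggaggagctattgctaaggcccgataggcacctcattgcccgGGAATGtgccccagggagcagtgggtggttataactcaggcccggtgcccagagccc
KLK6: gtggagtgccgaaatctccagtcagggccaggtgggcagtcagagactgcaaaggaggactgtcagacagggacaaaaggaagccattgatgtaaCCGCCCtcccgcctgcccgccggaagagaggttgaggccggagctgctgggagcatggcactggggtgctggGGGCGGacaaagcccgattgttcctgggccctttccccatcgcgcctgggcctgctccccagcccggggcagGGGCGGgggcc
KLK7: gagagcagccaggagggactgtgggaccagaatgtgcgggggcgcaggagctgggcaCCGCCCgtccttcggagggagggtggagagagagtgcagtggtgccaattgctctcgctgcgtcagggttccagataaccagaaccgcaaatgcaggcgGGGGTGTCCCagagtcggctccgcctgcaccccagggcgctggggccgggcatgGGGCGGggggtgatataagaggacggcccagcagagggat
The capitals in KLK5 are 2 matches to GGAATG, the letters bound by TEAD factors, which 11.9% of 27305 promoters of this length hold. Those in KLK6 are 3 matches to the GC box GGGCGG, present in 42.3% of promoters. KLK7 has 2 GC boxes and 1 match to the NF-kB motif, which 5.05% of promoters hold, and KLK10 also has 1 match to it. None of the 5 promoters in the RefSeq table, those of KLK5, KLK6, KLK7, KLK10 and KLK11, had a match to the AP-1 motif TGANTCA (6.6% of promoters) or to TATAAA (11.1%) in this window. The RefSeq starts differ from the GENCODE gene ends given above. By those ends the windows of KLK10 and KLK11 lie inside the genes, and those of KLK5, KLK6 and KLK7 partly so. Bases before the GENCODE starts of KLK10 and KLK11 were thus not searched. None of the 3 sequences printed holds both the GC box and the TEAD motif.

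KLK6, KLK7 and KLK10 were the abundant members. Per kilobase of exon, the mean level over the 24 libraries was 29.5 CPM for KLK6, a trypsin-like protease best known from the brain, 24.7 CPM for KLK7, a chymotrypsin-like protease, and 17.5 CPM for KLK10, which was first described as a gene lost in breast cancer cells. KLK5, the trypsin-like activator, averaged 6.54 CPM per kilobase and KLK8, a trypsin-like protease also called neuropsin, 5.87. The KLK8 value counts the exon bases shared with AC011473.4, and it is too low if reads there were dropped. The order of KLK5 and KLK8 is therefore not settled. KLK11, another trypsin-like protease, averaged 0.0724 CPM per kilobase, with 1 to 36 reads in a library, and reached 10 reads in 12 of the 24 libraries, most of them WT. KLK5 varied most, with 0.415 CPM in the lowest and 75.6 CPM in the highest library, a ratio of 182, while the ratio was 18.9 for KLK6, 14.7 for KLK10, 10.2 for KLK7 and 4.12 for KLK8.

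**Figure D1:**
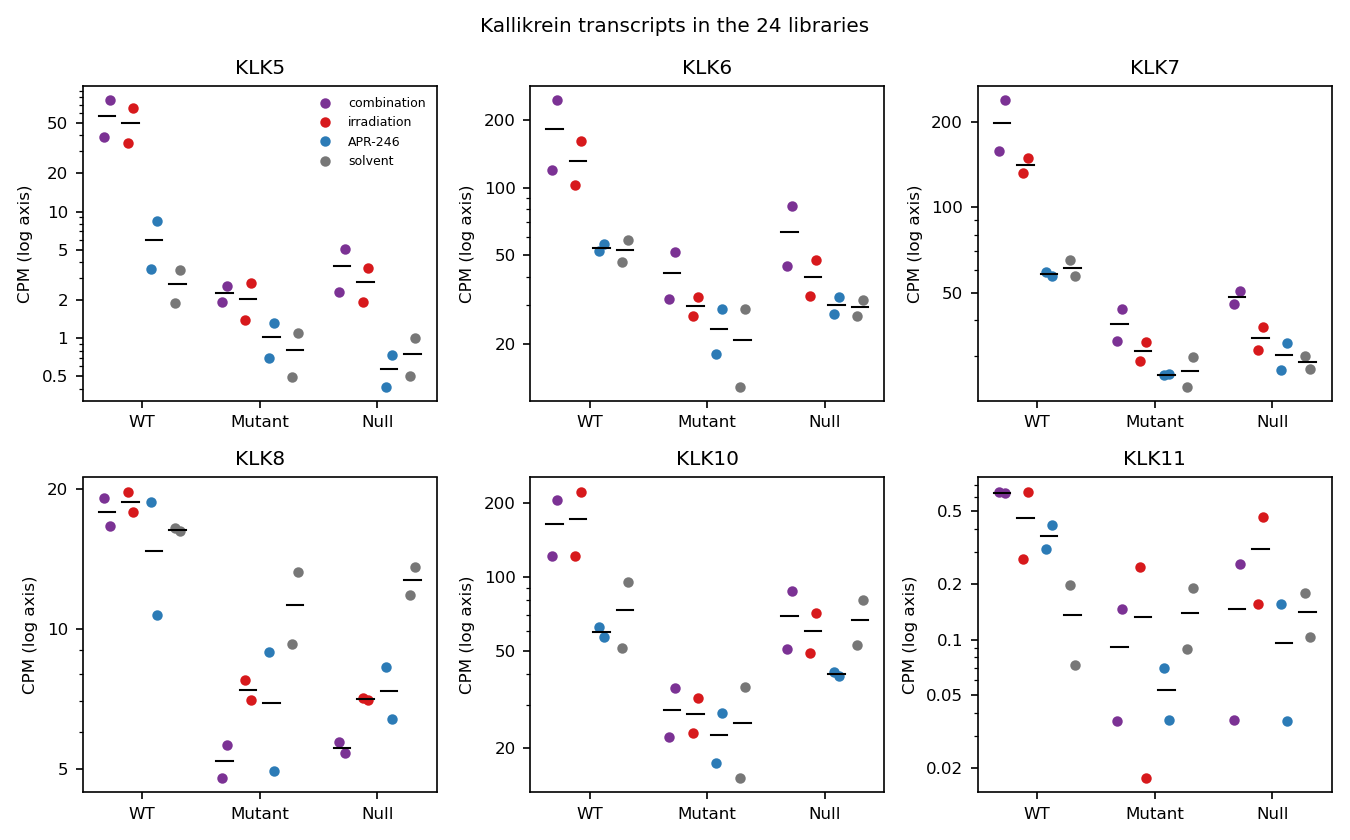
Level of each gene in every library, in CPM on a log axis, by line (WT, Mutant, Null) and treatment (colours), with points for the 2 libraries of a group and bars for their mean. KLK5 reached 34.5 to 75.6 CPM in the 4 irradiated WT libraries of both kinds, above all 20 other libraries, and KLK8 had its lowest means in the combination groups of the Mutant and Null lines.

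With the 12 groups ordered by their mean level, KLK5 was highest in WT combination cells, then in WT irradiation, WT APR-246, Null combination, Null irradiation, WT solvent, Mutant combination, Mutant irradiation, Mutant APR-246, Mutant solvent, Null solvent and Null APR-246 cells. In 9 of the 11 steps of that order the libraries of neighbouring groups overlapped, the exceptions being WT irradiation above WT APR-246 and Mutant irradiation above Mutant APR-246. The number of overlapping steps was 9 for KLK6, 7 for KLK7, 9 for KLK8, 8 for KLK10 and 11 of 11 for KLK11. The ranges of 2 libraries thus do not set most neighbours in these orders apart. Such an overlap does not show that the groups are alike, since library 2 was the higher one in 12 of 12 groups for KLK5 and for KLK6.

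The values that led to the choice of these genes are those of irradiated against solvent WT cells, and they are given here as a description. KLK5 had 34.5 and 65.4 CPM in irradiated WT cells, against 1.91 and 3.43 CPM in solvent WT cells. KLK6 had 102.6 and 162 CPM with irradiation, against 46.6 and 58.7 CPM with solvent, and KLK7 had 132 and 148 CPM with irradiation, against 65.3 and 57.2 CPM with solvent. KLK10 had 122 and 222 CPM with irradiation, against 51.4 and 94.8 CPM with solvent. The fitted fold was 2.45 for KLK6, 2.28 for KLK7 and 2.34 for KLK10. KLK8, at 19.7 and 17.9 CPM with irradiation against 16.5 and 16.2 CPM with solvent, stood at 1.14-fold, and KLK11 had 15 and 34 reads with irradiation, against 11 and 4 with solvent. Over all 20668 genes, 1.56% were called in this comparison, from which nothing is read here.

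Irradiation was then followed in the 5 pairs of groups other than irradiated against solvent WT cells, the pair that led to the choice. These were combination against APR-246 in each line, and irradiation against solvent in Mutant and in Null cells. WT combination cells are irradiated WT cells too, and how far their pair is independent of the choice is not known. No library belongs to more than 1 pair. KLK5 rose and KLK7 rose in the mean of the 5 pairs. KLK6, KLK8, KLK10 and KLK11 did not pass the limma test without covariates. In the limma fit over all genes, on log2 of TMM-scaled CPM plus 0.5, calls were made at 0.05 after Benjamini-Hochberg adjustment over the 20668 genes. Of these, 4.6% were called higher and 2.56% lower. In a bulk library a higher level in each cell and a larger share of expressing cells cannot be told apart.

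KLK5 had 38.7 and 75.6 CPM in WT combination cells, against 3.55 and 8.39 CPM in WT APR-246 cells. In Mutant cells it had 1.94 and 2.58 CPM with the combination, against 0.704 and 1.33 CPM with APR-246, and 1.39 and 2.73 CPM with irradiation, against 0.497 and 1.11 CPM with solvent. In Null cells it had 2.32 and 5.1 CPM with the combination, against 0.415 and 0.735 CPM with APR-246, and 1.94 and 3.58 CPM with irradiation, against 0.504 and 1.01 CPM with solvent. Both irradiated libraries lay above both unirradiated ones in 5 of 5 pairs, as they did for 1.44% of all genes tested. The mean difference over the 5 pairs was 1.61 ± 0.31 (log2 ± SE, 3.06-fold, adjusted p = 0.00581 by limma). It ranged from 1.47 to 1.75 and kept its call whichever of the 20 libraries was left out. The 4 pairs of the Mutant and Null lines alone, an average added after seeing the data, gave 1.26 ± 0.35 (2.39-fold, adjusted p = 0.0472 by limma), where 3.81% of genes were called higher. In that fit transcripts of this activating protease were higher with irradiation over the 2 lines, at 0.415 to 5.1 CPM. The call was close to the threshold, and this average was not run with libraries left out or by the other methods. On this scale the 0.5 added to the CPM pulls in the differences of low values: with 0.1 in its place the 5-pair mean for KLK5 was 1.92.

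KLK7, the chymotrypsin-like partner of KLK5, had 158 and 238 CPM in WT combination cells, against 59.0 and 57.2 CPM in WT APR-246 cells. In Mutant cells it had 33.9 and 43.8 CPM with the combination, against 25.7 and 25.8 CPM with APR-246, and 28.8 and 33.6 CPM with irradiation, against 23.4 and 29.8 CPM with solvent. In Null cells it had 45.5 and 50.6 CPM with the combination, against 26.8 and 33.4 CPM with APR-246, and 31.4 and 38.0 CPM with irradiation, against 29.9 and 27.0 CPM with solvent. The groups overlapped in the pair of Mutant irradiation and solvent, and irradiated libraries lay above in the other 4 pairs, as in at least 4 pairs for 5.37% of genes. The mean difference was 0.65 ± 0.18 (1.57-fold, adjusted p = 0.0408 by limma). This call was close to the threshold: it was lost when any 1 of 13 of the 20 libraries was left out, at values between 0.55 and 0.70, in the 4 pairs of the Mutant and Null lines, at 0.42 (adjusted p = 0.257 by limma), and without the filter on low values, at 0.65 (adjusted p = 0.093 by limma). The 13 were WT APR-246 library 1, WT combination library 2, Mutant solvent 1, APR-246 1, irradiation 1 and 2 and combination 2, and Null solvent 1 and 2, APR-246 1 and 2, irradiation 2 and combination 2.

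KLK6 had the second-highest mean difference, but with a wider spread. It had 120.0 and 245 CPM in WT combination cells, against 52.0 and 55.8 CPM in WT APR-246 cells. In Mutant cells it had 31.9 and 51.5 CPM with the combination, against 18.2 and 28.9 CPM with APR-246. In Null cells it had 44.8 and 82.6 CPM with the combination, against 27.4 and 32.6 CPM with APR-246, and 33.0 and 47.3 CPM with irradiation, against 26.9 and 31.7 CPM with solvent. Both irradiated libraries lay above both others in 4 of 5 pairs, the exception being Mutant irradiation, at 26.7 and 32.6 CPM, against Mutant solvent, at 12.98 and 28.8 CPM. The mean difference was 0.86 ± 0.30 (1.81-fold, adjusted p = 0.0973 by limma), and without Mutant solvent library 2 it was 1.03 and past the threshold. DESeq2 called it (adjusted p = 0.0361), as it did 11.8% of genes in either direction. It was also called at 0.66 (adjusted p = 2.31e-05 by limma) in a fit with the GC slope, the slope of each library's log2 values on the GC percent of the genes, as a covariate, which called 32.9% of genes.

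KLK10 did not pass the limma test without covariates. It had 122 and 206 CPM in WT combination cells, against 62.6 and 56.9 CPM in WT APR-246 cells. In Null cells it had 50.5 and 87.5 CPM with the combination, against 41.0 and 39.2 CPM with APR-246, and 49.0 and 70.9 CPM with irradiation, against 52.7 and 80.6 CPM with solvent. In Mutant cells it had 22.2 and 35.2 CPM with the combination, against 17.5 and 27.8 CPM with APR-246, and 23.0 and 31.9 CPM with irradiation, against 15.1 and 35.6 CPM with solvent. Irradiated libraries lay above the others in 2 of 5 pairs, those of the combination in WT and Null cells, as in at least 2 pairs for 28.2% of genes. The mean difference was 0.46 ± 0.32 (adjusted p = 0.45 by limma), and with the GC slope it was 0.24 and called (adjusted p = 0.0226 by limma). KLK11 gave 0.16 ± 0.13 (adjusted p = 0.515 by limma).

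KLK8 was the member with a negative value. Its mean difference was -0.39 ± 0.17 (adjusted p = 0.198 by limma), which did not pass the test, while with the GC slope it was -0.47 and called (adjusted p = 0.00213 by limma), and the irradiated libraries lay below in 3 of 5 pairs, as in at least 3 pairs for 4.43% of genes, and above in none. It had 7.13 and 7.06 CPM in irradiated Null cells, against 11.9 and 13.6 CPM in solvent Null cells, and 7.76 and 7.05 CPM in irradiated Mutant cells, against 9.29 and 13.3 CPM in solvent Mutant cells. In WT combination cells it had 19.1 and 16.6 CPM, against 18.8 and 10.7 CPM in WT APR-246 cells, so that these groups overlapped.

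**Figure D2:**
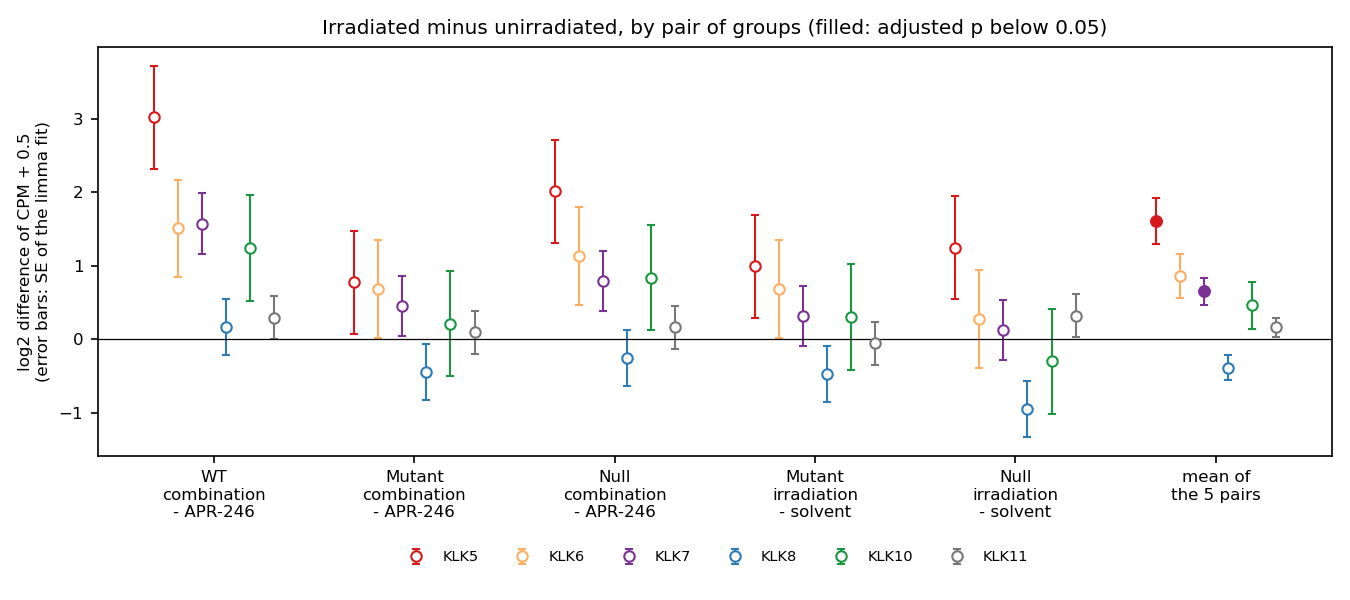
Fitted log2 difference of irradiated minus unirradiated groups for each kallikrein in the 5 pairs and in their mean, with error bars for the SE of the fit and filled points for an adjusted p below 0.05. KLK5 is above 0 in every pair and KLK8 is the only gene whose mean, -0.39, is below 0, and filled points appear only for KLK5 and KLK7 in the mean.

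No single pair gave a call for any of the 6 genes in the limma fit without covariates. For combination against APR-246 that fit called 0.411% of genes in WT, 0% in Mutant and 0.0242% in Null cells. For irradiation against solvent it called 0.0774% in Mutant and 0.677% in Null cells. At an unadjusted p below 0.05, 3 of the 6 passed in the WT pair, as did 7.56% of all genes. For the combination against APR-246, 1 passed in Null and 0 in Mutant cells, where 5.56% and 3.43% of genes did, and for irradiation against solvent 1 passed in Null and 0 in Mutant cells, where 11.8% and 13.1% did. In the WT pair DESeq2 called 2 of the 6 and 1.02% of all genes, and edgeR 0 of the 6 and 0.0532%. KLK5 had the largest difference in WT cells, 3.02 ± 0.70 (8.13-fold, adjusted p = 0.0875 by limma), ahead of KLK7 with 1.58 ± 0.41 (adjusted p = 0.141), KLK6 with 1.51 ± 0.67 (adjusted p = 0.61) and KLK10 with 1.25 ± 0.72 (adjusted p = 0.772). For KLK5, DESeq2 gave an adjusted p of 0.0247 and edgeR 0.34. The KLK5 difference was 2.01 ± 0.70 for the combination against APR-246 in Null cells and 0.77 ± 0.70 in Mutant cells, and for irradiation against solvent it was 1.25 ± 0.70 in Null cells and 1.00 ± 0.70 in Mutant cells. These values varied with single libraries: with 1 left out the combination gave 1.28 to 2.74 in Null and 0.31 to 1.24 in Mutant cells, and irradiation 0.66 to 1.83 in Null and 0.46 to 1.54 in Mutant cells. With the GC slope the irradiation value in Mutant cells was 0.22. With the replicate number as a block, limma gave KLK5 an adjusted p of 4.18e-06 in the WT pair. For the combination against APR-246 it gave 0.00125 in Null and 0.524 in Mutant cells. For irradiation against solvent it gave 0.00960 in Null and 0.0210 in Mutant cells. The WT pair gave 0.0125 for KLK6, 0.000368 for KLK7 and 0.0916 for KLK10 by limma with that block. The share of all genes that the block fit called is not given here.

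Whether irradiation acted more strongly in WT cells was tested as the difference of these differences, and limma called 0% of all genes. For KLK5, the response to irradiation on top of APR-246 in WT cells minus that in Mutant cells was 2.25 ± 0.99 (unadjusted p = 0.0378 in the limma fit) and minus that in Null cells 1.01 ± 0.99 (unadjusted p = 0.325 in the limma fit), and the adjusted p was 1 against Mutant and 0.953 against Null cells. For KLK7 the difference was 1.12 ± 0.58 against Mutant and 0.79 ± 0.58 against Null cells. At an unadjusted p below 0.05, 1 of the 6 genes passed against Mutant and 0 against Null cells, as did 2.79% and 3.32% of all genes. Neither edgeR nor DESeq2 called any of the 6; edgeR called 0% of all genes in both, and DESeq2 0.0435% against Mutant and 0.0194% against Null cells. With the GC slope, which called 0.368% of genes against Mutant cells, 3 of the 6 were called there, KLK5 at 2.58 (adjusted p = 0.00377 by limma), KLK7 at 1.30 (adjusted p = 0.0124) and KLK10 at 1.39 (adjusted p = 0.00901). Against Null cells the KLK5 value depended on the method, with 0.06 by DESeq2, 0.12 by edgeR and 1.69 with the GC slope (adjusted p = 0.0888 by limma).

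The share of KLK5 in the family's RNA is given with no test, and the values of irradiated and solvent WT cells are among those the choice used. The summed level of the 6 genes was 620 ± 229 CPM in WT combination cells, 513 ± 145 CPM in irradiated, 193 ± 4.85 CPM in APR-246 and 206 ± 34.3 CPM in solvent WT cells (mean ± SD, n = 2 each). KLK5 made up 9.06% of that sum with the combination and 9.51% with irradiation, against 3.12% with APR-246 and 1.27% with solvent. Its share was 1.95% with the combination, 2.06% with irradiation, 1.24% with APR-246 and 0.914% with solvent in Mutant cells. In Null cells it was 1.88% with the combination, 1.86% with irradiation, 0.527% with APR-246 and 0.533% with solvent. The share of KLK6 stayed between 21.3% and 35.4% in all 12 groups. KLK8 made up 4.55% in combination Mutant cells, against 13.7% in solvent Mutant cells, and 3.09% in combination Null cells, against 9.28% in solvent Null cells.

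The lines were compared over the APR-246 and combination groups, outside the irradiated and solvent WT cells that led to the choice. WT combination cells were irradiated too, and the comparisons were chosen with earlier results of these data known. In the APR-246 and combination groups KLK5, KLK7 and KLK8 were higher in WT than in Mutant cells and than in Null cells. KLK6, KLK10 and KLK11 did not pass either limma test without covariates. Both comparisons use the same 4 WT libraries, so that they are not independent. WT cells against Mutant cells gave 2.37% of genes called higher and 1.85% lower, and WT against Null cells 2.97% and 2.44%. KLK5 averaged 31.6 CPM in WT cells, with libraries from 3.55 to 75.6 CPM, against 1.64 CPM in Mutant cells, from 0.704 to 2.58 CPM, and 2.14 CPM in Null cells, from 0.415 to 5.1 CPM. The difference was 3.05 ± 0.50 to Mutant (8.27-fold, adjusted p = 0.00175 by limma) and 2.96 ± 0.50 to Null cells (7.81-fold, adjusted p = 0.00166 by limma). WT values of KLK5 overlapped those of Null cells, since the 2 WT APR-246 libraries lay at 3.55 and 8.39 CPM and the higher Null combination library at 5.1 CPM.

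KLK7 averaged 128 CPM in the 4 WT libraries, from 57.2 to 238 CPM, against 32.3 CPM in Mutant cells, from 25.7 to 43.8 CPM, and 39.1 CPM in Null cells, from 26.8 to 50.6 CPM. WT libraries did not overlap with either line, and the difference was 1.63 ± 0.29 to Mutant (adjusted p = 0.0035 by limma) and 1.30 ± 0.29 to Null cells (adjusted p = 0.0137 by limma). KLK8 averaged 16.3 CPM in WT cells, from 10.7 to 19.1 CPM, against 6.07 CPM in Mutant cells, from 4.78 to 8.92 CPM, and 6.45 CPM in Null cells, from 5.42 to 8.27 CPM. This was 1.26 ± 0.27 higher than in Mutant (adjusted p = 0.0132 by limma) and 1.09 ± 0.27 higher than in Null cells (adjusted p = 0.0262 by limma), again without overlap. The Null calls were not firm. That of KLK7 was lost without WT combination library 2 (1.12), Null APR-246 library 1 (1.26) or Null combination library 1 (1.13). That of KLK8 was lost without WT APR-246 library 1 (0.96), WT combination library 1 (1.07) or 2 (1.11), Null APR-246 library 2 (0.96) or Null combination library 1 (0.98). The KLK8 call against Mutant cells was lost without WT APR-246 library 1 (1.14), WT combination library 1 (1.24), Mutant APR-246 library 2 (1.17) or Mutant combination library 1 (1.12).

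In the limma fit, WT minus Mutant was 1.53 ± 0.47 for KLK6 (adjusted p = 0.0843), 1.84 ± 0.51 for KLK10 (adjusted p = 0.0538) and 0.73 ± 0.21 for KLK11 (adjusted p = 0.059). WT minus Null was 0.99 ± 0.47 for KLK6 (adjusted p = 0.249), 0.73 ± 0.51 for KLK10 (adjusted p = 0.416) and 0.59 ± 0.21 for KLK11 (adjusted p = 0.116). Against Mutant cells DESeq2 called all 6 genes and 6.91% of all genes, with an adjusted p of 0.0361 for KLK6, 0.013 for KLK10 and 0.0299 for KLK11. In the CPM, all 4 WT libraries lay above all 4 Mutant libraries for KLK5, KLK6, KLK7, KLK8 and KLK10, as for 3.93% of all genes, and also for KLK11, which passed the filter mainly through its WT libraries. They lay above all 4 Null libraries for KLK7 and KLK8, as for 6.27% of genes, and for KLK11. KLK11 stood at 0.31 to 0.636 CPM in WT cells, against 0.0358 to 0.147 CPM in Mutant cells and 0.0358 to 0.258 CPM in Null cells, so that the lower values of both lines are under the floor of 3 reads.

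KLK10 set the Mutant line apart from the Null line. Over all 8 libraries of each line its level was 15.1 to 35.6 CPM in Mutant cells, with a median of 25.4, against 39.2 to 87.5 CPM in Null cells, with a median of 51.6. The lines did not overlap, as for 1.44% of genes, and the difference was -1.22 ± 0.36 (0.428-fold, adjusted p = 0.035 by limma), in a comparison with 6.11% of genes called lower in Mutant cells. Leaving out any 1 of 10 of the 16 libraries ended this call, with values from -0.99 to -1.30. They were Mutant solvent library 1, APR-246 1, irradiation 1 and 2 and combination 1, and Null solvent library 2, APR-246 1 and 2, irradiation 2 and combination 2. KLK6 differed by -0.55 ± 0.33 (adjusted p = 0.37 by limma), and 1 of the 6 genes was called.

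**Figure D3:**
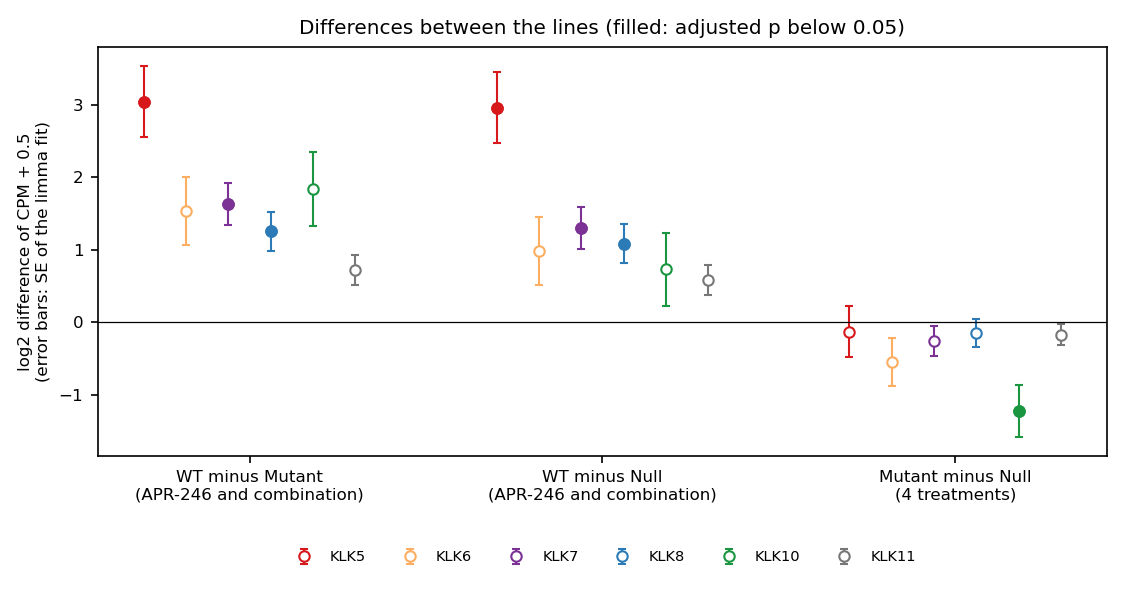
Fitted log2 difference between lines for each kallikrein, with error bars for the SE and filled points for an adjusted p below 0.05. KLK5, KLK7 and KLK8 are filled in both comparisons of WT cells, and KLK10, at -1.22, is the only filled point in Mutant minus Null.

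With APR-246, KLK8 had the largest difference of the 6 genes, but no gene of the 20668 passed the test for the mean of the 4 pairs of APR-246 against solvent and of the combination against irradiation in Mutant and Null cells (0% called). KLK8 had 8.92 and 4.96 CPM in Mutant APR-246 cells, against 9.29 and 13.3 CPM in Mutant solvent cells. It had 4.78 and 5.63 CPM in Mutant combination cells, against 7.76 and 7.05 CPM in irradiated Mutant cells. In Null cells it had 8.27 and 6.42 CPM with APR-246, against 11.9 and 13.6 CPM with solvent, and 5.71 and 5.42 CPM with the combination, against 7.13 and 7.06 CPM with irradiation. Both APR-246 libraries lay below both others in 4 of 4 pairs, as for 0.402% of genes. The mean difference was -0.61 ± 0.19 (0.657-fold, adjusted p = 0.213 by limma, 0.195 by edgeR and 0.0553 by DESeq2), and KLK8 was the 1 of 6 genes with an unadjusted p below 0.05, as 10% of all genes had. None of the 4 pairs gave a call for the 6 genes on its own by limma, edgeR or DESeq2, and at an unadjusted p below 0.05 in the limma fit 1 passed for APR-246 against solvent in Null cells, where 8.69% of all genes did. In the other 3 pairs 0 passed, where the share of all genes was 7.34% for APR-246 against solvent in Mutant cells, 1.96% for the combination against irradiation in Mutant and 1.67% in Null cells. Limma called 0.131% of all genes in that Null pair and 0% in the others. These pairs reuse the Mutant and Null libraries of the irradiation comparison, so that the 2 results on KLK8 are not independent. For KLK5 the APR-246 libraries were apart from the others in none of the 4 pairs, and in WT cells it had 38.7 and 75.6 CPM with the combination against 34.5 and 65.4 CPM with irradiation, which overlapped.

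KLK5, KLK6 and KLK7 had closely similar profiles. Over the 24 libraries, Pearson's r of the log2 values was 0.96 between KLK5 and KLK7, 0.92 between KLK5 and KLK6 and 0.96 between KLK6 and KLK7, and KLK7 ranked 2 among all tested genes in likeness to KLK5 and KLK6 ranked 10. KLK6 and KLK10 had an r of 0.92. These values rest on 24 libraries that share their lines and treatments, and they are a description. The 24 include the irradiated and solvent WT libraries that led to the choice of these genes. The likeness, its ranks and the values below are therefore not independent of that choice. After the mean of each line was taken out, r was 0.93 between KLK5 and KLK7 and 0.003 between KLK5 and KLK8, which had been 0.53 before. The median r of all tested genes with KLK5 was -0.02. Among the 5 genes most like KLK5 were KLK7, the pseudogene RPL23AP82 (0.96), CYSRT1 (0.94) and COL5A1 (0.93), a fibrillar collagen chain. Those most like KLK10, the member with the highest mean CPM when length is not taken into account, were PHLDA3 (0.98), which restrains AKT, CDIP1 (0.92), KLK6 (0.92), EPS8L2 (0.92) and KRT13 (0.91).

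Most other kallikreins of the cluster were not called. Of 9 other tissue kallikreins, 5 had enough reads to be tested, and 1, KLK14, rose with irradiation in the mean of 5 pairs, by 0.57 ± 0.11 (adjusted p = 0.00607 by limma), at 0.110 to 2.04 CPM. The median difference of the 5 was 0.09, against -0.004 over all genes. Of all genes, 4.6% were called higher and 2.56% lower in this mean, which are the shares to set beside the lists below. KLK13, the tested kallikrein between KLK11 and KLK14, gave 0.09 ± 0.13 (adjusted p = 0.742 by limma), and KLK4, the nearest one on the other side of KLK5, 0.30 ± 0.21 (adjusted p = 0.465 by limma). Within 200 kb of the 6 genes lie 35 annotated genes that are no kallikreins. Of these, 9 were tested and 0 were called, by limma, with a median of 0.01.

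**Figure D4:**
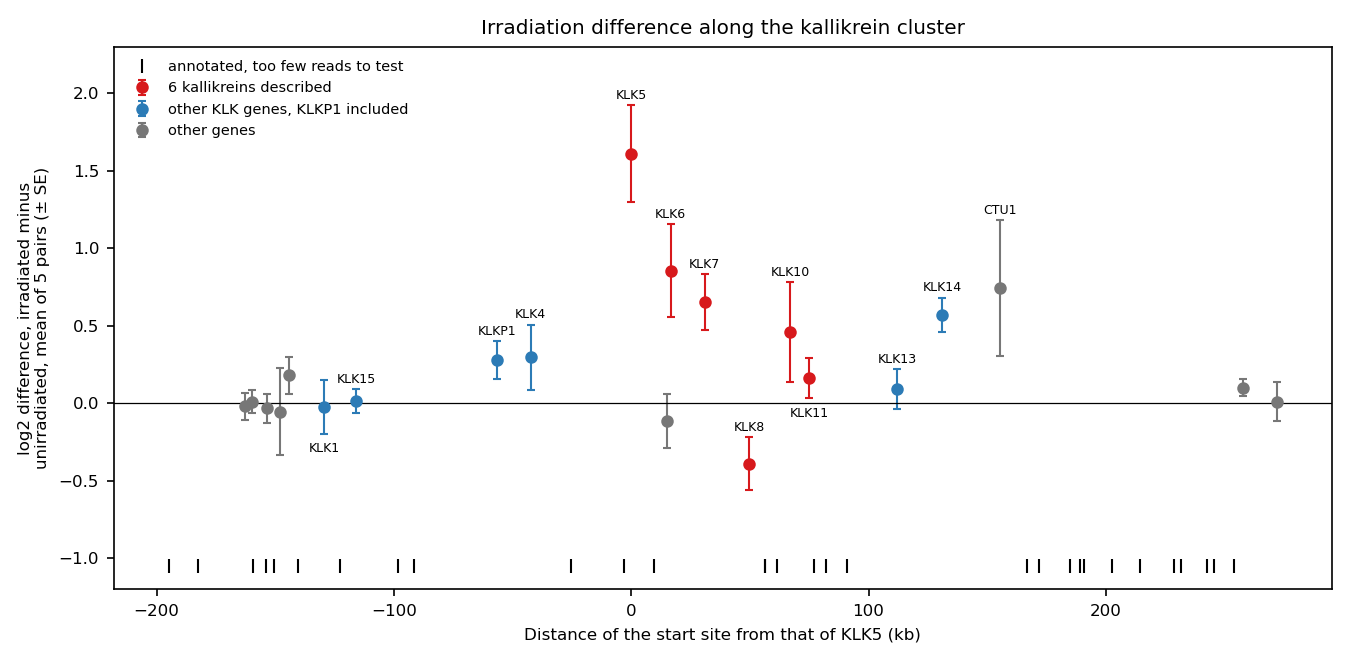
Mean log2 difference of irradiated minus unirradiated groups over the 5 pairs (± SE) for every tested gene around the cluster, by distance of its start site from that of KLK5 in kb. KLK5 has the highest value, 1.61, followed by KLK6, then CTU1 at the far side of the cluster with a wide error bar, then KLK7, while KLK8 in the same stretch lies at -0.39 and ticks at the bottom mark genes with too few reads.

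Among 16 protease inhibitors, 10 were tested in the mean of 5 irradiation pairs, 3 rose and 1 fell, with a median of 0.09. SERPINB5, the serpin maspin, rose by 0.73, WFDC2 by 0.42 and PI3, the elastase inhibitor elafin, by 0.23, the last at no more than 0.247 CPM. SERPINA5, which inhibits several kallikreins, fell by 0.93. The transcripts of SPINK5, encoding LEKTI, and of 5 other SPINK genes had too few reads to be tested, with at most 8 reads of SPINK5 in a library. SPINT1 and SPINT2, inhibitors of membrane-bound serine proteases, averaged 227 and 328 CPM and were not called. In the WT pair of combination and APR-246 alone, 2 of the 10 were called higher, SERPINB5 (1.97) and WFDC2 (1.54), with a median of -0.03 against 0.02 over all genes. Of all genes, 0.411% were called in that pair in either direction.

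Of 15 activating and partner proteases, 11 were tested, 3 rose and 0 fell, with a median of 0.35. These were the serine protease PRSS22 (0.80), cathepsin V (CTSV, 0.65) and the collagenase MMP13 (0.26), the last at no more than 0.287 CPM. ST14, encoding matriptase, gave 0.57 (adjusted p = 0.2 by limma). Of 5 receptors, 3 were tested and 0 called by limma, with a median of 0.10, with F2RL1, the protease-activated receptor cut by KLK5 and KLK6, averaging 111 CPM. Of 16 substrates, 12 were tested and 2 rose, with a median of -0.13. They were the laminin chain LAMA3 (0.64) and the collagen chain COL4A1 (0.43), the last at no more than 0.556 CPM.

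Genes of squamous and cornified differentiation were divided. Of 33, 23 were tested in the mean of 5 irradiation pairs, 5 rose and 1 fell, with a median of 0.06. The keratins KRT6A (1.38), KRT17 (1.30) and KRT14 (0.87) rose most, KRT6B and the transcription factor GRHL3 also rose, and PPL, encoding periplakin, fell by 0.68. KRT6A, KRT6B and GRHL3 were also called higher in WT combination against APR-246 cells, where 0.411% of all genes were called. In Null cells 1 of the 23 was called higher for that pair of treatments (0.0242% of all genes) and 2 for irradiation against solvent (0.677%). In Mutant cells 0 were called in either pair. KRT6B was at no more than 0.998 CPM and KRT6A at no more than 5.47 CPM. In Mutant against Null cells, 10 of the 23 were called lower and 0 higher by limma, with a median of -0.52 against 0.01 over all genes. Of all genes, 6.11% were called lower there. LORICRIN, SPRR3 and CRNN, genes of late cornification, had at most 8 reads in any library, as did TP63, the transcription factor of squamous epithelium.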

How the data were processed

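RNA was measured in 24 libraries (TRIzol, oligo(dT), BGIseq500, paired reads of 100 bases, per the labels' protocols). FastQC, STAR, featureCounts (Subread) and GRCh38.p13 are named, per the submitters' processing notes; versions and strand setting are not given in the sources used here. The authors deposited CPM values, from which whole reads were recovered: 100% came out whole to within 0.05 reads. Of values of 2 to 9 reads, 74.5 to 81.5% were even, so mates were probably counted one by one, and the floor of 3 reads covers counting error only.

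The main test was limma-trend with robust variances (limma 3.58.1, edgeR 4.0.16, R 4.3.3) on log2 of TMM-scaled CPM plus 0.5, over the 20668 genes that filterByExpr kept at a count minimum of 10, with 12 groups and 12 residual degrees of freedom. Fold changes are on that scale, which understates low genes. Benjamini-Hochberg adjustment ran over all genes, at 0.05. The limma and edgeR fits were checked on simulated data. These had the same relative spread for all genes and no replicate or GC effect, so that the check does not show how the fits behave on the real libraries. Alternatives were no filter, a pseudocount of 0.1, no TMM, edgeR's quasi-likelihood test and DESeq2 1.42.0 on the recovered reads, the replicate number as a block, a GC slope per library, both together, and leaving out each library.

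The 6 genes, the gene lists and the comparisons were chosen with earlier results of these data known. The text names all 6 genes, up to 3 called genes of each list and direction, and the 5 genes most like KLK5 and KLK10 by Pearson's r, except for an item that is not reported here. Named beside these, after their values were seen, were KLK4, KLK13, SPINT1, SPINT2, ST14, F2RL1 and untested genes. Gene positions came from GENCODE 29, with 58444 of 60675 ids matched, and promoters from RefSeq, with 5 of 6 genes matched.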

Additional observations from a re-analysis of the deposited data

How the results depend on the processing

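No difference printed for a member in the planned tests changed sign under any alternative run. The values of irradiation against solvent in WT cells and the average over 4 pairs were not part of this check. With the GC slope the log2 difference of KLK8 in that WT pair was 0.0016, in place of 0.195. Among the differences that are plotted only, the GC slope gave -0.08 for KLK6, -0.10 for KLK7 and -0.54 for KLK10 in Mutant irradiation minus solvent, where the values had been 0.68, 0.32 and 0.30, and 0.06 for KLK5 in Mutant minus Null, in place of -0.13. The block and GC slope together gave -0.41 for KLK10 in that Mutant pair. Leaving out 1 library changed 22 further signs, none of them of a called value. The counts of the 6 genes called moved most with the replicate block and with the GC slope, the slope of each library's log2 values on gene GC percent; the 6 genes have a GC of 49.3 to 58.2%, against a median of 49.8%. For irradiation over 5 pairs (2 called) the count was 3 by DESeq2, 1 without the filter, 1 in the 4 Mutant and Null pairs (added after seeing the data), 4 with the replicate block, 5 with the GC slope and 5 with both, and 1 to 3 with 1 library left out. For APR-246 over 4 pairs (0 called) it was 1 with the block, 1 with the GC slope and 2 with both. For the combination against APR-246 it was, in WT cells (0 called), 2 without TMM, 2 by DESeq2, 3 with the block, 4 with the GC slope and 4 with both, and in Null cells (0 called) 1, 2 and 3 with the block, the slope and both. For irradiation against solvent it was 1, 1 and 1 in Mutant and 1, 3 and 3 in Null cells (0 called in each). For APR-246 against solvent (0 called) it was 1 with the slope and 1 with both in Mutant, and 2 and 2 in Null cells. For the WT minus Mutant difference in response (0 called) it was 1 with the block, 3 with the slope and 3 with both. For WT minus Null (3 called) it was 5 without TMM, 6 with the block, 6 with the slope, 6 with both, and 1 to 3 with 1 library left out. For WT minus Mutant (3 called) it was 6 without TMM, 6 by DESeq2, 6 with the block, 6 with the slope, 6 with both, and 2 to 3 with 1 library left out. For Mutant minus Null (1 called) it was 0 without the filter, 2 with the block, 2 with the slope, 3 with both, and 0 to 1 with 1 library left out. Apart from fewer samples or genes, the cause was not tested. The share of all genes called moved too, to 32.9% with the GC slope and 11.8% by DESeq2 for irradiation over 5 pairs. The main fit called 4.6% higher and 2.56% lower there. Shares for the replicate block are not given here. The counts of the 6 genes are thus a record of the settings, and nothing about these genes is read from them. Without TMM the median of all genes moved to 0.11 for WT combination minus APR-246 and to 0.12 for WT minus Null.

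The replicate numbers were not taken to pair the libraries, since not every correlation was over 0.1 and the labels name no shared source. Deviations of same-numbered libraries correlated at -0.56 to 0.90 over 66 pairs of groups (median 0.63), with 55 over 0.1 and all others involving Null APR-246, whose r with every other group was -0.56 to -0.14. Among the other 11 groups all 55 were over 0.1, a hint from the data that their numbers share something, and whether the 2 Null APR-246 labels are exchanged is not known; none were crossed here. The main fit counts what same-numbered libraries share as spread, so that a gene it did not call may be called with the block. In irradiation over 5 pairs, limma with the replicate block gave an adjusted p of 0.000251 for KLK6 (0.86) and 0.0438 for KLK10 (0.46). For KLK5 it gave 0.0336 in the WT minus Mutant response (2.25), and each of these was then called. Library 2 was the higher one for KLK5 in 12 of 12 groups and for KLK6 in 12 of 12, and its GC slope was higher in 11 of 12.

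With 2 libraries per group the median SE of a log2 difference between groups was 0.32, which limits every single pair. KLK11 rests on at most 36 reads, so its levels, many under the floor, set no order between groups.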
